A study of Mus musculus with 8 samples.

Results

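The 10 genes described here, Atf4, Ddit3, Atf3, Trib3, Chac1, Asns, Sesn2, Ppp1r15a, Psat1 and Mthfd2, are genes of the integrated stress response that act with or under the transcription factors ATF4 and CHOP. They were taken by name, as Ensembl identifiers matched to mouse symbols, and are 10 of the 43629 genes in the count table. All 10 were found and all 10 passed the filter on low counts, which left 14587 genes to test. They were followed to ask whether palmitate, a saturated fatty acid, moved this stress pathway in adipocytes, and whether an inhibitor of PI3K changed that.

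The cells were differentiated 3T3-L1 adipocytes, a mouse pre-adipocyte line that turns into fat-storing cells in culture when given insulin, dexamethasone, isobutylmethylxanthine and rosiglitazone. On day 8 of differentiation they were left untreated, given 2 μM A66, an inhibitor of the p110α subunit of PI3K, given 0.5 mM palmitate bound to BSA, or given palmitate plus A66, each for 24 h (the combination with no order of addition given) and in 2 cultures, with 1 poly(A)-selected RNA library per culture. The study's methods give a lower dose of A66 and DMSO vehicle for the control, whereas the labels call the control cells untreated. No group received BSA or DMSO alone by the labels, so an effect of palmitate and an effect of its carrier cannot be told apart. If the labels hold, the same is true of A66 and its solvent. Library totals ran from 42247091 to 57529803 counts, and 3 counts, taken as the smallest detectable amount, equalled 0.0521 to 0.0710 CPM and cover counting error only. CPM are counts scaled to a common library total, and gene levels below are CPM after TMM scaling. The adipocyte label was checked against 12 marker genes, all of which had counts in every library. Adipoq, the adiponectin gene, lay between 2049 and 2547 CPM and the lipid-binding protein gene Fabp4 between 2639 and 3054 CPM. Of 5 macrophage markers, Adgre1 and Ptprc had 0 counts in all 8 and in 7 of the 8 libraries, respectively. Csf1r and Itgam reached at most 0.277 and 0.0519 CPM, and Cd68 lay between 2.57 and 5.74 CPM. Preadipocyte and fibroblast markers ran from Dlk1, with 0 counts in all 8 libraries, to Col3a1, between 2953 and 3537 CPM.

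In the integrated stress response, kinases that sense amino acid shortage, misfolded protein in the endoplasmic reticulum (ER), double-stranded RNA or loss of haem phosphorylate the translation factor eIF2. General protein synthesis slows, but the mRNA of ATF4 is translated better, and ATF4 then switches on genes for amino acid supply and, through CHOP (the product of Ddit3), genes linked to cell death. ATF4 is therefore controlled largely at translation, which counts of mRNA do not measure, and its target genes are the usual readout. In fat and liver cells, saturated fatty acids are known as inducers of ER stress and of this pathway.

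ATF4 and its partners of the C/EBP family bind a composite DNA element, of which TGATGNAA was searched as the core on both strands of promoter windows running from 250 bases before to 50 bases after RefSeq start sites (GRCm38.p6). The element was found in 4 of the 11 windows of the 10 genes (Psat1 has 2 windows) and in 3.97% of all 32851 windows. The second motif, TGACGTCA, the cyclic AMP response element that factors of the ATF family bind, reads the same on both strands and was found in the window of Ppp1r15a and in 1.79% of all windows. The ER stress element, searched as CCAAT and CCACG with 9 bases between them on both strands, was found in none of the 11 windows and in 0.119% of all windows. A match is a string of letters and not proof of binding. The matches are shown because they fall in genes that differ in how much they changed, with 60 bases of each window written 5′ to 3′ on the gene's strand and the motif, or its reverse complement, in capitals.
Atf3 (chr1:191183410-191183469, minus strand): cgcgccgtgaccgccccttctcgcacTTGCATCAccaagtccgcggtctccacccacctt
Trib3 (chr2:152344039-152344098, minus strand): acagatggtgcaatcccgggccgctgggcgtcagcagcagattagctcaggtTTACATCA
Chac1 (chr2:119351023-119351082, plus strand): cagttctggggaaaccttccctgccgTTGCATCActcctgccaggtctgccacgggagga
Asns (chr6:7693199-7693258, minus strand): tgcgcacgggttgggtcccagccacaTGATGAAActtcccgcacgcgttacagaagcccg
Ppp1r15a (chr7:45526247-45526306, minus strand): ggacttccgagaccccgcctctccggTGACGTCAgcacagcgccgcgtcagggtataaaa

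The 10 genes differed widely in level in untreated adipocytes. On a per-length scale (RPKM, CPM per kilobase of annotated exon), Trib3 had the highest level, 161 ± 11.2 RPKM (SD, n = 2), followed by Atf4 at 138 ± 4.22 RPKM and Ddit3 at 109 ± 2.38 RPKM. Each of these 3 genes stood at or above the 98th percentile of all genes tested. Psat1 had 78.5 ± 1.16 RPKM and Asns 70.5 ± 3.94 RPKM, and a lower tier held Ppp1r15a at 29.6 ± 0.275 RPKM, Mthfd2 at 27.0 ± 2.09 RPKM, Chac1 at 25.5 ± 0.926 RPKM and Sesn2 at 18.6 ± 1.29 RPKM. Atf3 was the lowest at 8.57 ± 1.54 RPKM, at percentile 64.8. Between neighbours in this order, only the replicate ranges of Mthfd2 (25.5 to 28.4 RPKM) and Chac1 (24.8 to 26.2 RPKM) overlapped.

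With palmitate alone, Mthfd2 rose and the other 9 genes did not pass the test. All 10 had a log2 fold change above 0, which 50.2% of all genes tested had, and their median was 0.14 against 0.00053 over all genes. The signs of Ddit3, Psat1, Sesn2 and Trib3 turned in some fits with 1 library left out. Of the 10, 1 gene, Mthfd2, was called (edgeR quasi-likelihood, adjusted p under 0.05 over all genes), where 1.17% of all genes passed, 0.631% as higher and 0.542% as lower. For palmitate plus A66 against A66, 5 of the 10 genes were called higher and 9 of the 10 were above 0, with a median log2 fold change of 0.23. In that comparison 2.73% of all genes passed, 1.46% as higher and 1.27% as lower, and 50.2% were above 0. The difference between this comparison and that of palmitate with untreated was tested as an interaction, in which 0 of the 10 genes passed in edgeR and 0 in DESeq2, with 4 at an unadjusted p under 0.05. The untreated and palmitate libraries and the A66 and palmitate plus A66 libraries are 2 separate pairs of groups, which share no library. Of the 10 genes, 9 had a log2 fold change above 0 in both, which 29.3% of all genes did. All 4 libraries with palmitate lay above all 4 without it for Atf4, Chac1, Asns, Ppp1r15a and Mthfd2, which is 5 of the 10 genes, against 4.08% of all genes tested, and for 0 of the 10 genes did they lie below, against 3.61%.

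**Figure D1:**
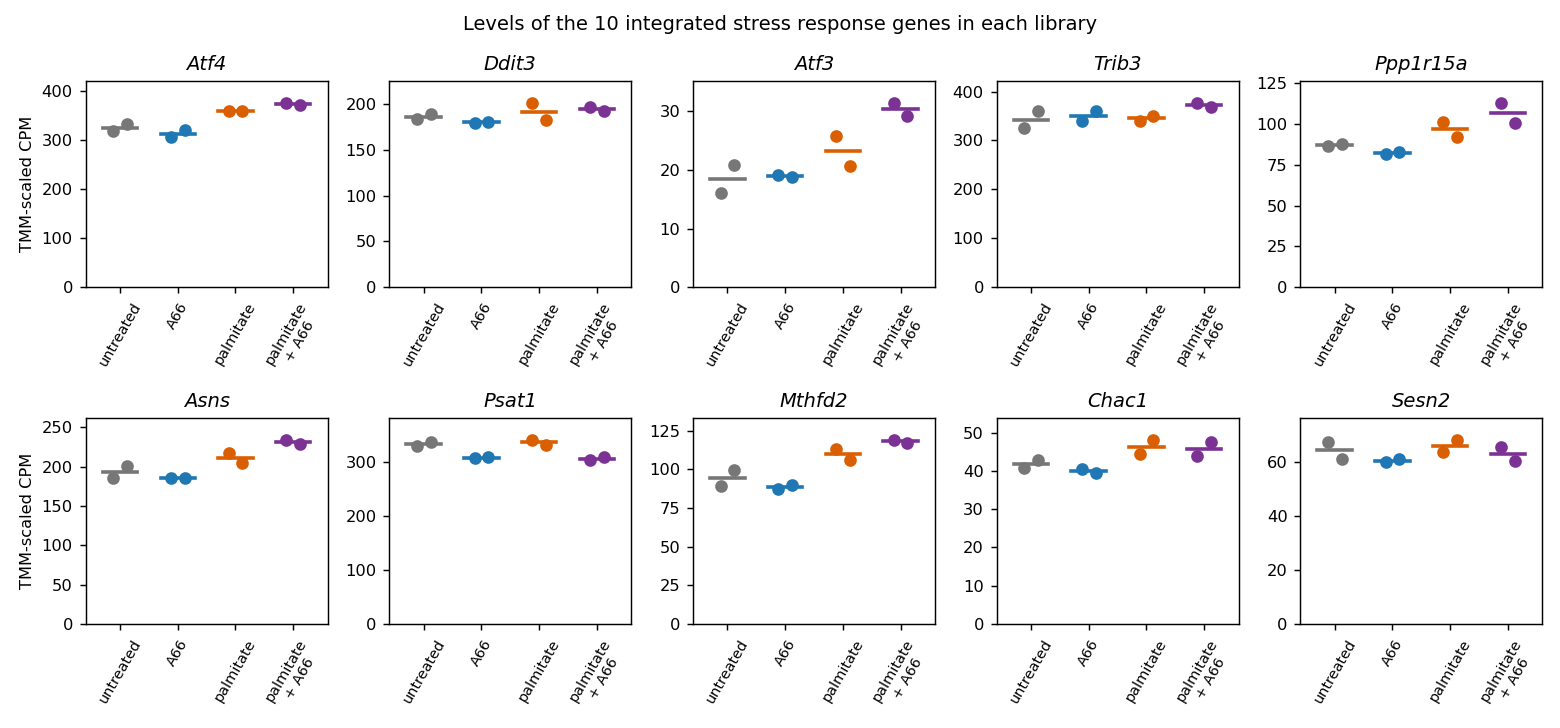
Each panel plots the TMM-scaled CPM (y axis, from 0) of 1 gene in the 4 groups (x axis), with a point per library (n = 2) and a bar at the group mean. The palmitate plus A66 libraries are the highest for Atf4, Atf3, Trib3, Asns and Mthfd2. For Psat1 both groups with A66 lie below both groups without it. How many of all genes show either order was not counted.

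Among the transcription factors, Atf4 (ENSMUSG00000042406, chromosome 15 of GRCm38, 80255184 to 80257541), the factor that gives the pathway its name, had 318 and 332 CPM in untreated cells, 306 and 321 CPM with A66, 360 in both libraries with palmitate (SD 0.296), and 376 and 372 CPM with palmitate plus A66. Both groups with palmitate lay above both groups without it. The log2 fold change with palmitate was 0.15 (SE 0.041, adjusted p = 0.0914), which did not pass, and in the presence of A66 it was 0.25 (SE 0.041, adjusted p = 5.79e-04), a rise of 19.3%. Without A66 replicate 1 the latter was 0.22, with an adjusted p of 0.0615 by edgeR. DESeq2 called Atf4 also for palmitate alone (adjusted p = 0.0229).

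Atf3 (ENSMUSG00000026628, chromosome 1, 191170296 to 191218039), a stress-induced bZIP factor that ATF4 and CHOP act upon, had the largest fitted change of the 10 genes in each comparison but A66 against untreated. It had 16.1 and 20.8 CPM in untreated cells, 19.1 and 18.8 CPM with A66, 25.9 and 20.6 CPM with palmitate, and 31.4 and 29.3 CPM with palmitate plus A66. The untreated and palmitate replicates overlapped, and both libraries of the combination lay above the other 6. Its log2 fold change was 0.33 (SE 0.10, adjusted p = 0.134) with palmitate and 0.68 (SE 0.099, adjusted p = 1.71e-04) with palmitate in the presence of A66, a rise of 60.1%. The first of these moved with each of its libraries. It was 0.16 (adjusted p = 0.688) without untreated replicate 1 and 0.15 (adjusted p = 0.747) without palmitate replicate 1, but 0.53 (adjusted p = 0.0151) without untreated replicate 2 and 0.48 (adjusted p = 0.0142) without palmitate replicate 2. In such edgeR fits the lone library of a group is assumed to vary like those of the other groups.

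Ddit3 (ENSMUSG00000025408, chromosome 10, 127290774 to 127296288), which encodes CHOP, did not pass in any of the 5 comparisons tested. It had 183 and 189 CPM untreated, 180 in both libraries with A66 (SD 0.516), 201 and 182 CPM with palmitate, and 196 and 192 CPM with palmitate plus A66. The palmitate replicates spanned the untreated ones. The log2 fold change with palmitate was 0.042, with a 95% confidence interval of -0.052 to 0.14, and with palmitate in the presence of A66 it was 0.11 (interval 0.015 to 0.20, adjusted p = 0.242). The 3′ end of Ddit3 overlaps that of Mars, which runs the other way. Its exons also overlap those of Gm4189 on the opposite strand (6 to 34 counts) and of another Ddit3 entry absent from the count table. How reads in these overlaps were counted, which may depend on the strand setting, the sources used here do not tell.

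Of the feedback genes, Ppp1r15a (ENSMUSG00000040435, chromosome 7, 45522916 to 45526268) encodes GADD34, which directs a phosphatase to eIF2 and ends the response, and Trib3 (ENSMUSG00000032715, chromosome 2, 152337422 to 152344032) encodes a pseudokinase that restrains ATF4 and AKT. Ppp1r15a had 86.4 and 87.5 CPM untreated, 81.4 and 83.1 CPM with A66, 101 and 92.2 CPM with palmitate, and 113 and 100 CPM with palmitate plus A66. Its 4 libraries with palmitate lay above the other 4, while the 2 palmitate groups overlapped. The change was 0.16 (SE 0.053, adjusted p = 0.190) with palmitate and 0.37 (SE 0.053, adjusted p = 1.22e-04) in the presence of A66. Without palmitate replicate 1 the first of these was 0.085. Trib3, at 326 and 359 CPM untreated, 341 and 360 CPM with A66, 341 and 350 CPM with palmitate and 376 and 368 CPM with the combination, passed in no comparison. Its change with palmitate was 0.0099 (interval -0.086 to 0.11), and its sign turned to -4.72e-04 when libraries were scaled by size only.

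Among the genes of amino acid and one-carbon supply, Mthfd2 and Asns followed each other over the 8 libraries (r = 0.98). Psat1 followed neither (r = 0.003 with Mthfd2 and -0.13 with Asns), and this difference was not tested. Mthfd2 (ENSMUSG00000005667, chromosome 6, 83305691 to 83325908), a mitochondrial enzyme of the folate cycle, had 88.9 and 99.2 CPM in untreated cells, 87.2 and 89.7 CPM with A66, 113 and 106 CPM with palmitate, and 119 and 117 CPM with palmitate plus A66. The groups with palmitate did not overlap those without it, and the 2 libraries with both agents were the highest. Mthfd2 rose by 0.22 on the log2 scale with palmitate (SE 0.050, 16.6%, adjusted p = 0.0273) and by 0.42 in the presence of A66 (SE 0.050, 33.4%, adjusted p = 1.32e-05). The first of these calls was lost without untreated replicate 1 (0.15, adjusted p = 0.349) and without palmitate replicate 1 (0.17, adjusted p = 0.303, both by edgeR).

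Asns (ENSMUSG00000029752, chromosome 6, 7675169 to 7693254), asparagine synthetase, had 185 and 200.5 CPM untreated, 186 in both libraries with A66 (SD 0.182), 218 and 204 CPM with palmitate, and 234 and 228 CPM with palmitate plus A66. The combination stood above palmitate alone, which stood above the 4 other libraries. Its change was 0.13 (SE 0.045, adjusted p = 0.202) with palmitate and 0.32 (SE 0.045, adjusted p = 1.30e-04) with palmitate in the presence of A66. The first of these was 0.073 without untreated replicate 1 and 0.082 without palmitate replicate 1. Psat1 (ENSMUSG00000024640, chromosome 19, 15904678 to 15947337), an aminotransferase of serine synthesis, showed another pattern. It had 330 and 337 CPM untreated and 342 and 333 CPM with palmitate, but 308 and 310 CPM with A66 and 304 and 309 CPM with palmitate plus A66. All 4 libraries with A66 lay below all 4 without it, and the share of all genes with this order was not counted. Its change with palmitate was 0.015 (interval -0.067 to 0.096), and with A66 it was -0.11 (adjusted p = 0.205) in cells without palmitate and -0.14 (adjusted p = 0.0602) in cells with it, neither of which passed in edgeR, while DESeq2 called the second (adjusted p = 0.0107), as did edgeR without untreated replicate 1 (adjusted p = 0.0489) or 2 (adjusted p = 0.0499).

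Chac1 (ENSMUSG00000027313, chromosome 2, 119351229 to 119354381), an enzyme that breaks down glutathione and a target of ATF4 and CHOP, had 40.7 and 42.8 CPM untreated, 40.4 and 39.4 CPM with A66, 44.3 and 48.1 CPM with palmitate, and 43.9 and 47.7 CPM with the combination. Its palmitate libraries were higher than the others, with a change of 0.15 (adjusted p = 0.280) without A66 and 0.20 (adjusted p = 0.0706) with it, neither of which passed. The second was called by edgeR without the filter on low counts (adjusted p = 0.0365) and with only the groups compared in the fit (adjusted p = 0.0374). Sesn2 (ENSMUSG00000028893, chromosome 4, 132492032 to 132510501), a stress-induced inhibitor of mTORC1, had group means between 60.6 and 66.1 CPM, and its groups with and without palmitate overlapped. Its change with palmitate was 0.036 (interval -0.077 to 0.15).

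**Figure D2:**
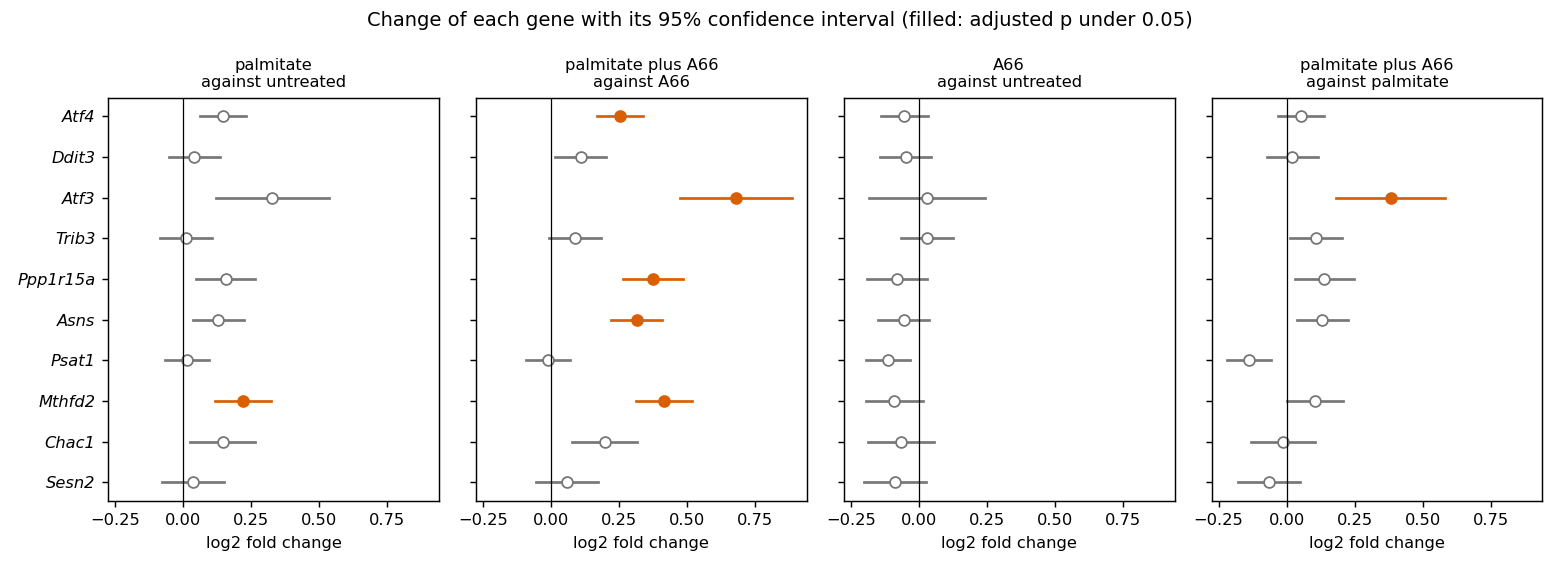
The x axis is the log2 fold change and the rows are the 10 genes, with the 95% confidence interval from the edgeR fit as a line, in 4 comparisons. Filled orange points mark an adjusted p under 0.05, of which there are 1, 5, 0 and 1 from left to right.

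A66 itself gave few calls among these genes. Against untreated cells, 0 of the 10 genes passed in edgeR and 0 in DESeq2, where edgeR called 1.43% of all genes, 0.795% as higher and 0.638% as lower. At an unadjusted p under 0.05 in edgeR there was 1 gene, Psat1, beside 12% of all genes. The median log2 fold change was -0.060, with 8 of the 10 genes below 0 and 2 above it, where 48.5% of all genes were above 0. Added to palmitate, A66 gave a median of 0.079, with 7 of the 10 genes above 0, against 49.7% of all genes, and 1 of the 10 called higher, against 2.81% of all genes called, 0.973% as higher and 1.84% as lower. That gene was Atf3, with a log2 fold change of 0.38 (SE 0.096, adjusted p = 0.0309). An unadjusted p under 0.05 in edgeR was reached by 6 of the 10 genes, with Psat1 lower and the rest higher, beside 14.4% of all genes. The call of Atf3 rested on every library of the comparison but palmitate replicate 1. The change was 0.23 (adjusted p = 0.412) without palmitate replicate 2, 0.33 (adjusted p = 0.215) without palmitate plus A66 replicate 1 and 0.43 (adjusted p = 0.0653) without replicate 2 of that group, and DESeq2 gave the same change of 0.38 without calling it (adjusted p = 0.309).

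Whether the change with palmitate differed between cells with and without A66 was tested as an interaction. For 9 of the 10 genes the change was larger with A66, against 50.6% of all genes, with a median difference of 0.093 on the log2 scale, but 0 of the 10 passed in edgeR and 0 in DESeq2, and 0.00686% of all genes did in edgeR. At an unadjusted p under 0.05 there were 4, Asns with a difference of 0.19 (SE 0.064), Ppp1r15a with 0.22 (SE 0.075), Mthfd2 with 0.19 (SE 0.070) and Atf3 with 0.35 (SE 0.14), against 7.92% of all genes. Their adjusted p values lay between 0.469 and 0.549. The difference was 0.15 for Atf3 and 0.11 for Mthfd2 without untreated replicate 2. It was 0.20 for Atf3 without palmitate replicate 2, and 0.13 for Ppp1r15a without palmitate plus A66 replicate 1. A larger response to palmitate in the presence of A66 was therefore not shown for any single gene.

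**Figure D3:**
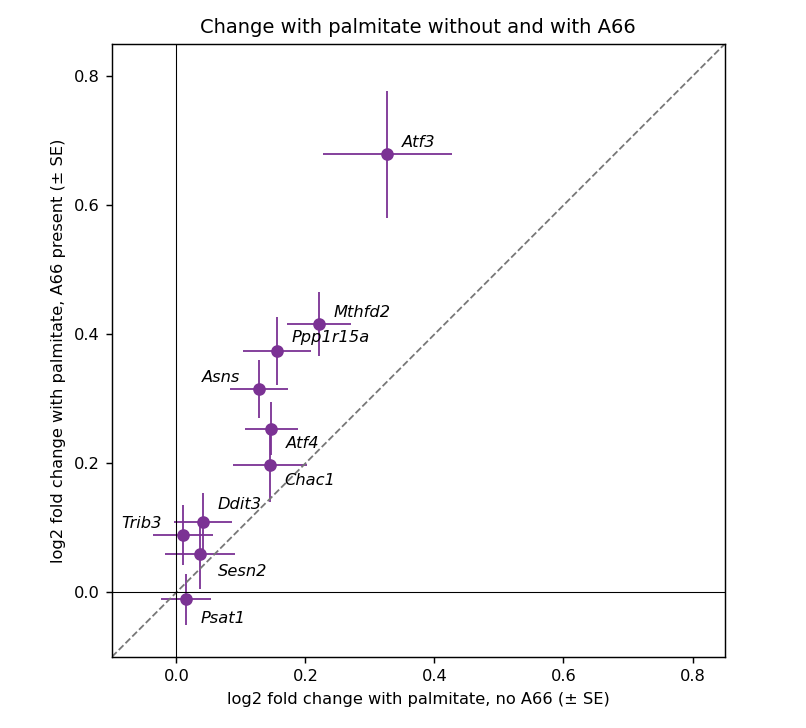
The x axis is the log2 fold change with palmitate in cells without A66 and the y axis that in cells with A66, 1 point per gene with SE bars and a dashed line of equal change. Of the 10 genes, 9 lie above the line, and Psat1 lies near 0 on both axes.

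The rest of the pathway was described with 7 lists of 122 genes, 118 of which were tested. With palmitate alone, 3 of the 118 were called, all higher, beside 0.631% of all genes called higher and 0.542% lower. They were Got1, the cytosolic aspartate aminotransferase (log2 fold change 0.20, adjusted p = 0.0354), Gadd45a, a growth arrest gene (0.22, adjusted p = 0.0327), and Manf, a secreted factor of the ER stress response (0.32, adjusted p = 0.00936). Manf had 35.6 and 40.6 CPM untreated and 49.3 and 46.2 CPM with palmitate. The count of list genes called was 0 without untreated replicate 1, 1 without palmitate replicate 1 and 8 without palmitate replicate 2. With palmitate in the presence of A66, 25 of the 118 were called higher and 1 lower, beside 1.46% and 1.27% of all genes. This total of 26 was 7 without A66 replicate 1 and 9 without palmitate plus A66 replicate 1. In the interaction 0 of the 118 were called by edgeR, so a difference between the counts for the 2 palmitate comparisons was not shown. For A66 against untreated, 0 of the 118 were called higher and 5 lower, beside 0.795% and 0.638% of all genes. For A66 added to palmitate, 4 were called higher and 4 lower, beside 0.973% and 1.84%. Apart from Got1, Gadd45a and Manf, the genes that follow from these lists were chosen after their values were seen.

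Upstream of ATF4, the 19 genes of the eIF2 kinases and of eIF2 control had a median log2 fold change of -0.011 with palmitate and -0.0055 with palmitate in the presence of A66. None was called in the first comparison (edgeR and DESeq2), beside 1.17% of all genes, and 1 in the second, beside 2.73%, both near the shares over all genes. The called gene was Eif2s2, a subunit of eIF2 (0.28, adjusted p = 7.58e-04). Eif2ak3, which encodes PERK, the kinase of ER stress, lay between 42.5 and 47.3 CPM in all 8 libraries. Eif2ak2, which encodes the kinase PKR, was lower with A66, by 0.23 without palmitate and by 0.27 with it (adjusted p = 0.0185 and 0.00304).

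Of the 12 amino acid transporters, 3 rose with palmitate in the presence of A66, where 1.46% of all genes were called higher. The largest rise was that of Slc7a11, the cystine importer, with 14.4 CPM in both A66 libraries and 26.4 and 23.7 CPM with palmitate plus A66 (0.80, SE 0.10, adjusted p = 2.3e-05). Palmitate alone gave 20.9 and 15.9 CPM, the second of which was close to the untreated libraries (13.8 and 14.7 CPM), and did not pass (0.36, adjusted p = 0.0911). Slc7a1, a carrier of cationic amino acids, rose by 0.29 and Slc3a2, the partner chain of several transporters, by 0.16. Slc7a5, a carrier of large neutral amino acids, was lower with A66 (-0.26, adjusted p = 0.00309). For A66 added to palmitate, Slc7a5 was also lower (-0.18, adjusted p = 0.0189) and Slc7a11 was higher (0.44, adjusted p = 0.0109). Of 14 genes of amino acid and one-carbon synthesis tested, 4 rose with palmitate in the presence of A66 (Shmt2, Pycr1, Got1 and Bcat1, by 0.20 to 0.55), and of 20 cytosolic aminoacyl-tRNA synthetases, which charge tRNAs and include many ATF4 targets, 7 rose, by 0.15 to 0.25. Of these synthetases 19 had a log2 fold change above 0 in each of the 2 palmitate comparisons, with medians of 0.071 and 0.15, against 0.00053 and 0.00044 over all genes. Leaving out A66 replicate 1 left 0 of the 14 synthesis genes, 1 of the 20 synthetases and 1 of the 12 transporters called, and leaving out palmitate plus A66 replicate 1 left 0 of the 14 and 1 of the 20. The synthetases called numbered 4 without A66 replicate 2 and 3 without palmitate plus A66 replicate 2.

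Among 19 other targets of ATF4 and CHOP, 4 rose and 1 fell with palmitate in the presence of A66, beside 1.46% and 1.27% of all genes. Gadd45a (0.33), Tnfrsf10b, a death receptor (0.35), Ero1a, an ER oxidase (0.27), and Sqstm1, an autophagy receptor (0.22), were higher, and Bcl2l11, which encodes the death factor BIM, was lower (-0.25). With A66 alone, 0 of the 19 were called higher and 2 lower, beside 0.795% and 0.638% of all genes. The 2 were Nupr1, a stress-induced chromatin protein, which fell by 0.30, and Ero1a, which fell by 0.27. For A66 added to palmitate, Gadd45a (0.24) and Sqstm1 (0.15) were called higher, beside 0.973% of all genes. Ddit4 (-0.445) and Nupr1 (-0.17) were called lower there, beside 1.84%. The secreted stress hormones Fgf21 and Gdf15 had fewer than 3 CPM in all 8 libraries, and their log2 fold changes with palmitate, 1.11 (SE 0.34) and 0.82 (SE 0.24), did not pass (adjusted p = 0.131 and 0.109). Of 20 ER chaperones and genes of the IRE1 and ATF6 arms, 5 rose with palmitate in the presence of A66, among them Hspa5, the chaperone BiP, from 1138 and 1160 CPM to 1450 and 1413 CPM (0.32, adjusted p = 3.22e-04), while Xbp1, the factor of the IRE1 arm, lay between 133 and 143 CPM in all 8 libraries. The counts of 5 other targets and 5 ER genes called became 1 and 3 without A66 replicate 1, 3 and 3 without A66 replicate 2, and 2 and 2 without palmitate plus A66 replicate 1.

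**Figure D4:**
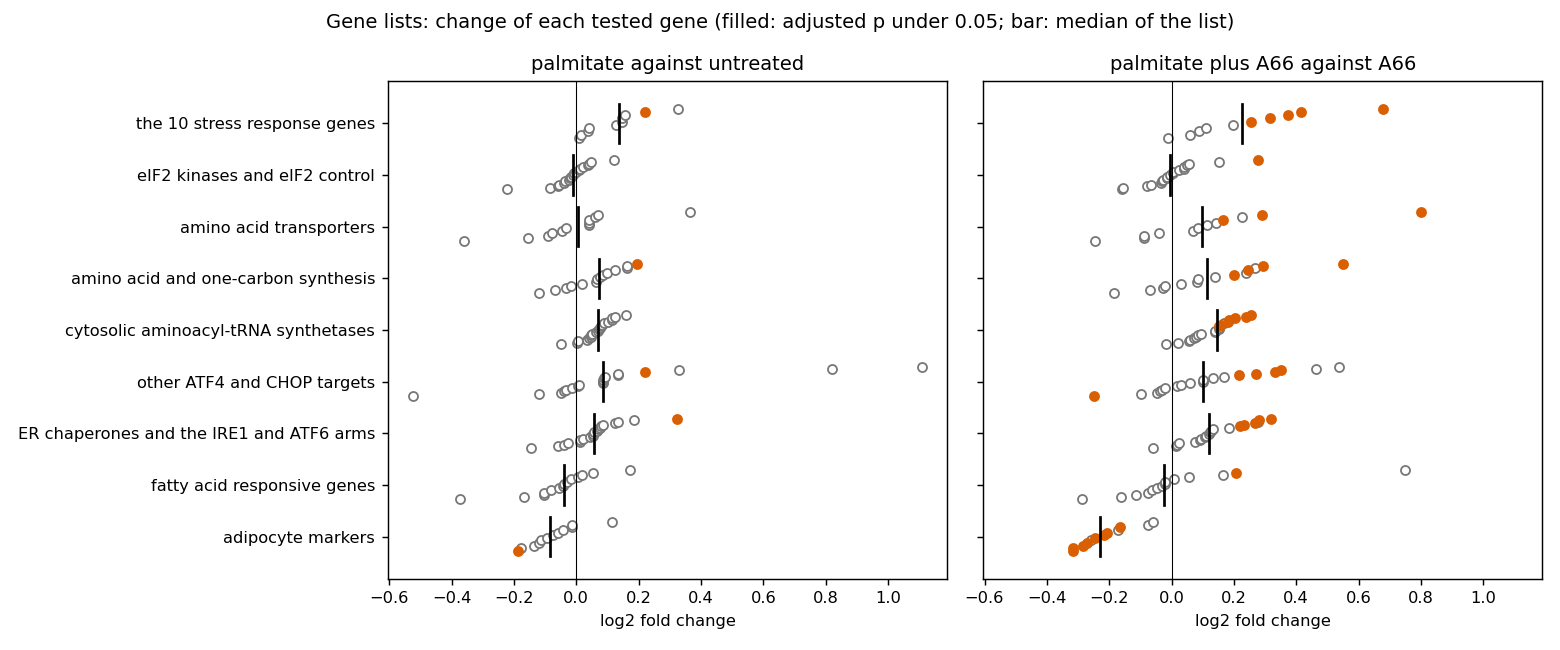
Each row is a gene list and each point a tested gene, with its log2 fold change (x axis) for palmitate against untreated cells (left) and for palmitate plus A66 against A66 (right). Orange points have an adjusted p under 0.05 and black bars are list medians, which for the 10 stress response genes are 0.14 and 0.23.

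Of 14 genes tested that respond to fatty acids through PPAR receptors, 0 were called with palmitate alone in edgeR and 1 in DESeq2, beside 1.17% of all genes in edgeR, and the median was -0.041. Plin2, a lipid droplet coat protein, had 209 and 226 CPM untreated and 242 and 248 CPM with palmitate (0.17, adjusted p = 0.0572), and it rose by 0.21 in the presence of A66 (adjusted p = 0.00737). Pdk4, a kinase that restrains glucose oxidation, lay between 52.7 and 57.8 CPM in all 8 libraries, and Cpt1a, the entry enzyme of mitochondrial fatty acid oxidation, between 59.3 and 64.2 CPM.

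Some adipocyte markers were called lower in the comparisons in which stress response genes were called higher. The markers named here were chosen after their values were seen, except Lpl and Col1a1, which the rule for named genes also takes. In the comparison of palmitate plus A66 with A66, 8 of the 12 markers fell, beside 1.27% of all genes, and the other 4 were below 0 without passing, and their summed level was 18550 and 19300 CPM with A66 and 16150 and 17280 CPM with both agents. The count was 5 in DESeq2 and without A66 replicate 2, and 1 without A66 replicate 1 or without palmitate plus A66 replicate 1. With palmitate alone, 1 of the 12 fell, Lpl, beside 0.542% of all genes, and the sums were 18920 and 18860 CPM untreated and 16700 and 17780 CPM with palmitate. That count was 0 without untreated replicate 1 or 2, A66 replicate 1 or 2, or palmitate replicate 1, and 4 without palmitate replicate 2. For palmitate plus A66 against palmitate, in which Atf3 was called, 3 of the 12 fell, Cidec, Slc2a4 and Retn, by 0.23 to 0.32, beside 1.84% of all genes, and the count was 1 without palmitate replicate 2 or palmitate plus A66 replicate 1 and 5 without palmitate replicate 1. Preadipocyte and fibroblast markers, 7 of 8 tested with Dlk1 at 0 counts in all 8 libraries, summed to between 3929 and 4609 CPM. Of the 7, 1 was called higher with palmitate alone, where 0.631% of all genes were, Col1a1 (0.25, adjusted p = 0.00331), which was at 0.0061 for palmitate plus A66 against A66. For palmitate plus A66 against palmitate, in which Atf3 was called, Col1a1 was lower (-0.33, adjusted p = 1.75e-04) and Acta2 higher (0.35, adjusted p = 0.0305). The count of these markers called higher there was 0 in DESeq2, without palmitate replicate 2 and without palmitate plus A66 replicate 1. The 5 macrophage markers summed to between 2.80 and 5.96 CPM, nearly all of it Cd68, which was called higher for palmitate plus A66 against A66 (2.65 and 3.28 against 5.40 and 5.74 CPM), though not without A66 replicate 1. In bulk RNA, fewer adipocytes and less of these RNAs per cell cannot be told apart, and the part of the markers' change in the results on stress response genes was not tested.

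Over the 8 libraries, the genes whose log2 CPM followed that of Atf4 most closely were Mthfd2 (Pearson r = 0.98), Fdps (r = 0.98) and Tmem97 (r = 0.97). For Asns they were Srxn1 (r = 0.99), Gars (r = 0.99) and Mthfd2 (r = 0.98), and for Ddit3 they were 2610044O15Rik8 (r = 0.98), Ube2d2a (r = 0.96) and 2210008F06Rik (r = 0.96). These values are a description over 8 libraries in 4 groups that share treatments. Ddit3 itself varied only between 180 and 201 CPM, 2610044O15Rik8 between 20.4 and 21.9 CPM and Ube2d2a between 151 and 166 CPM. The level of 2210008F06Rik was low, at 0.348 to 0.709 CPM.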

How the data were processed

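Per the labels and the study's methods, paired-end reads from 8 libraries of 3T3-L1 adipocytes (4 groups of 2) were aligned by the authors with TopHat2 2.0.11 to GRCm38 and counted per gene with HTSeq. The deposited values are raw counts without normalization. The annotation and the strand setting of the counting are not given in the sources used here. The authors also deposited columns of their own DESeq2 comparison (mean, fold change, its error, statistic and p-values), which were not used. Symbols, coordinates and exon lengths came from GENCODE M21 (42548 of 43629 genes matched).

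The counts were fitted in R 4.3.3 with edgeR 4.0.16 on all 8 libraries and 4 groups, with TMM scaling, filterByExpr (minimum count 10), quasi-likelihood tests and Benjamini-Hochberg adjustment over 14587 genes. A gene was called at an adjusted p under 0.05. Standard errors are the log2 fold change over the root of the F statistic. Comparisons were palmitate against untreated, A66 against untreated, palmitate plus A66 against each single agent, and the interaction. Alternatives were RLE scaling, library size only, DESeq2 1.42.0, no filter, at least 10 counts in every library, only the groups compared, the replicate number as a block and leaving out each library. The scripts were tested on simulated data. The biological coefficient of variation was 0.0406, and replicates differed by more than counting noise (mean chi-square per gene 6.15 to 8.99). Log2 CPM used a prior count of 2.

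Groups follow the treatment labels, on which the direction of every A66 difference depends. Cultures are called biological repeats in the methods. The members and lists were chosen with earlier results of these data known. The genes named were the 10 members, up to 2 genes per list and direction with the smallest p among those called with palmitate (Got1, Gadd45a and Manf, with Lpl and Col1a1 of the cell type markers), and the 3 genes most like Atf4, Ddit3 and Asns. Others are marked as chosen after their values were seen.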

Additional observations from a re-analysis of the deposited data

How the results depend on the processing

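With 2 libraries per group, small changes are at the limit of what can be called, and the counts moved with the filter and with single libraries. The 5 genes called for palmitate in the presence of A66 (Atf4, Atf3, Asns, Ppp1r15a and Mthfd2) were called under each of the 7 alternatives, and Atf4 alone was lost, once, with a library left out.

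Without the filter on low counts, 4 of the 10 genes were called with palmitate alone (Atf4, Atf3, Ppp1r15a and Mthfd2) and 2 with A66 added to palmitate, and all genes called numbered 396 for palmitate, 403 for A66, 652 for A66 added to palmitate, 664 for palmitate in the presence of A66 and 91 for the interaction. Genes of the 7 lists called then numbered 11 for palmitate (transporters 1, synthesis 2, synthetases 1, other targets 3, ER genes 3, fatty acid genes 1). For A66 added to palmitate they numbered 13, where the main fit called 4 higher and 4 lower. For palmitate in the presence of A66 there were 5 transporters and 2 fatty acid genes. With at least 10 counts in every library, 5 list genes were called with palmitate (other targets 2, fatty acid genes 1). All genes called with palmitate then numbered 181, where the main fit called 171. With RLE scaling, 2 other targets were called with palmitate, beside 173 genes in all. Scaled by library size only, 2 of the 10 genes were called with A66 added to palmitate (Atf3 and Psat1), beside 457 genes in all. With palmitate, 0 synthesis genes were called, beside 188 genes in all. With palmitate in the presence of A66, 3 synthetases and 2 fatty acid genes were called, beside 446 genes in all. For the interaction 2 genes were called, and the sign of Trib3 with palmitate turned to -4.72e-04. This scaling also moved the share of called genes that were higher, from 53.8% to 44.1% for palmitate, from 55.5% to 43.8% for A66, from 34.6% to 23.4% for A66 added to palmitate and from 53.5% to 40.4% for palmitate in the presence of A66. With palmitate, DESeq2 called 2 of the 10 genes and 6 list genes (other targets 2, ER genes 2, fatty acid genes 1), beside 196 genes in all. It called 6 genes for the interaction. With only the groups compared in the fit, 689 genes were called for palmitate in the presence of A66, with 2 eIF2 genes, 11 synthetases and 3 fatty acid genes.

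The replicate numbers gave little sign of pairing, as the correlation of same-numbered deviations between groups ran from -0.147 to 0.153 over 8956 genes. With 2 libraries per group this cannot exclude that same-numbered cultures were handled together. With the replicate block, 1, 0, 1, 5 and 0 of the 10 genes were called for palmitate, A66, A66 added to palmitate, palmitate in the presence of A66 and the interaction, the same genes as without it. List genes called with palmitate numbered 5 (other targets 2, fatty acid genes 1), beside 195 genes in all. Fatty acid genes with palmitate in the presence of A66 numbered 2, beside 438 genes in all. For the interaction 3 genes were called.

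With each library left out in turn, the count of the 10 genes was 0 to 2 for palmitate and 0 to 2 for A66 added to palmitate. Counts over all genes were 71 to 245 for palmitate, 42 to 268 for A66, 147 to 494 for A66 added to palmitate, 107 to 502 for palmitate in the presence of A66 and 0 to 10 for the interaction. The lowest of the first 4 came without palmitate replicate 1, A66 replicate 1, palmitate replicate 2 and A66 replicate 1. Counts over the 7 lists were 0 to 8, 1 to 6, 3 to 9 and 7 to 31 for the first 4 of these. With palmitate, ER genes were 0 to 4, synthesis genes 0 to 2, transporters 0 to 1, fatty acid genes 0 to 1 and other targets 0 to 1, and in the presence of A66 they were 2 to 6, 0 to 4, 1 to 4, 0 to 2 and 1 to 5, with synthetases 1 to 9. Log2 fold changes that changed sign in these runs were those of genes not called. With palmitate they ranged from -0.032 to 0.11 for Ddit3, -0.0047 to 0.036 for Psat1, -0.035 to 0.11 for Sesn2 and -0.059 to 0.083 for Trib3. With A66 they ranged from -0.11 to 0.0043 for Asns, -0.13 to 0.23 for Atf3 and -0.038 to 0.10 for Trib3. With A66 added to palmitate they ranged from -0.074 to 0.048 for Chac1 and -0.049 to 0.093 for Ddit3, with palmitate in the presence of A66 from -0.024 to 0.0015 for Psat1, and in the interaction from -0.0083 to 0.11 for Chac1, -0.0043 to 0.14 for Ddit3 and -0.048 to 0.094 for Sesn2. The cause of these shifts was not tested, beyond the fewer libraries or the other set of genes that each setting brings. The counts of cell type markers under these settings were added after seeing the data.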
